A study of Mus musculus with 6 samples.

Results

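The smooth muscle actin gene Acta2 and 9 genes that build or control contractile actin filaments (Actg2, Tagln, Myl9, Cnn1, Cnn2, Tpm1, Tpm2, Ankrd1 and Srf) were followed in RNA of mouse astrocytes. The 10 genes were taken by name from the 35127 genes measured. Of these, 9 were among the 14359 genes with enough reads to test, and Actg2 was not. The study set 3 libraries of astrocytes from brains carrying a small cell lung cancer (SCLC) allograft (tumour libraries 1 to 3) beside 3 libraries of astrocytes from brains given a sham injection (sham libraries 1 to 3). SCLC is a lung carcinoma with neuroendocrine features, and the brain is a common site of its metastases. The comparison asks how astrocytes near the tumour differ from control astrocytes. Both groups were frozen as cells and sequenced as total RNA by 1 provider. The strain, age and sex of the mice, the tumour line, the way the astrocytes were purified and the animals or cultures behind each library were not given in the sources used here. A p-value here thus reflects the spread among these libraries only, and that spread may be technical.

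Smooth muscle contracts when phosphorylated myosin pulls on filaments of smooth muscle actin, which carry tropomyosin, calponin and transgelin along their length. Other cells switch on the same genes when they build stress fibres. In brain tissue they are best known from the mural cells of vessels and from fibroblasts, and astrocytes in culture can also make smooth muscle actin. Many of these genes are bound by serum response factor (SRF), which reads a short AT-rich sequence called the CArG box and works with either of 2 families of cofactors. Myocardin and the myocardin-related factors serve contractile genes, and the myocardin-related factors respond to the pool of free actin. The ternary complex factors respond to growth factor signalling and serve immediate early genes. Ankrd1 is also widely used as a target of YAP and its DNA-binding partner TEAD, whose core motif is GGAATG.

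Promoter sequences were looked up because several of the genes shared a pattern over the libraries. RefSeq windows of 250 bases before the gene start (build GRCm38.p6) were at hand for 8 of the 10 genes (not for Tagln and Actg2). An exact CArG box stood in 3 of the 8 windows, those of Cnn2, Myl9 and Srf, against 1.47% of all 32851 windows searched on both strands. They are shown up to the first annotated exon, 5′ to 3′ on the gene's strand, with the boxes in capitals. In the Myl9 window the second run of capitals is a box with 1 G in its AT core. The Cnn2 window is chr10:79988350-79988583 on the plus strand, the Myl9 window chr2:156775214-156775419 on the plus strand and the Srf window chr17:46556176-46556412 on the minus strand.
Cnn2: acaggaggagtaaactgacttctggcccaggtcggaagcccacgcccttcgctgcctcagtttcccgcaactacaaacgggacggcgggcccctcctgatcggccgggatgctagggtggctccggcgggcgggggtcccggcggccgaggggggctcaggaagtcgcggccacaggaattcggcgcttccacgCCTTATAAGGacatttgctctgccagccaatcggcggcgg
Myl9: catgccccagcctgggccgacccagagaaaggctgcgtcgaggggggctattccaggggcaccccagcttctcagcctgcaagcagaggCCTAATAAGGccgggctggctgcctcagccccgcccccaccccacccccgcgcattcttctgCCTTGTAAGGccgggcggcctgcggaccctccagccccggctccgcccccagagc
Srf: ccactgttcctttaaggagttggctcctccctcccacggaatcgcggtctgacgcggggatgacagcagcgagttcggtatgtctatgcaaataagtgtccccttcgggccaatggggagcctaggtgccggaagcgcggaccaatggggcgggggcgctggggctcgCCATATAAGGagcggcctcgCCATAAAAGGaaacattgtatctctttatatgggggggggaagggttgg

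The Cnn2 box lay 56 to 47 bases before the RefSeq start, the exact Myl9 box 161 to 152 bases before it, and the Srf boxes 82 to 73 and 62 to 53 bases before it. A box with at most 1 G or C in its core, a search added after the exact one, was found in 4 of the 8 windows against 8.59% of all windows. It added Acta2, whose window held a box 84 to 75 and another 34 to 25 bases before the start. GGAATG on either strand was found in 3 of the 8 windows, those of Acta2, Ankrd1 and Tpm1, against 12.6% of all windows. These windows overlap an annotated first exon over most of their length, so only 30 bases around each match are shown, on the minus strand, with the match in capitals. The Acta2 stretches are chr19:34255438-34255467, chr19:34255388-34255417 and chr19:34255502-34255531, those of Ankrd1 are chr19:36120037-36120066 and chr19:36119950-36119979, and that of Tpm1 is chr9:67049252-67049281.
Acta2, first box: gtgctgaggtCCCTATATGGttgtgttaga
Acta2, second box: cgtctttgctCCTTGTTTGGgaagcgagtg
Acta2, GGAATG: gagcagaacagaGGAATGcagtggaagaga
Ankrd1, first GGAATG: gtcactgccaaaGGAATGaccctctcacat
Ankrd1, second GGAATG: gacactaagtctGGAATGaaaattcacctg
Tpm1, GGAATG: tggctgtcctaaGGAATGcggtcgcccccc
Among the genes high in the tumour libraries and sham 3 (given below), Cnn2 alone held an exact box, and Acta2 held boxes with 1 G or C. Cnn1 and Tpm2 held none, and Tagln was not searched. Myl9 and Srf held exact boxes and did not share that pattern. A match describes the letters in a window and does not show that a factor was bound there.

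The libraries held 22133723 to 25800897 estimated reads. Tumour libraries 1 to 3 nearly coincided, as did sham 1 and 2, with root mean square log2 differences of 0.226 to 0.24 over the tested genes. Sham 3 stood apart from both, at 0.643 and 0.65 from the other sham libraries and 0.6 to 0.607 from the tumour libraries. The tumour libraries were about as far from sham 1 and 2, at 0.612 to 0.621. All 10 astrocyte markers were measured in every library, and their summed level was 4723 to 4835 CPM in the tumour libraries, against 6517, 6580 and 3270 CPM in sham 1, 2 and 3. Single markers did not all follow that sum: Aldh1l1 was called higher in the tumour libraries (log2 fold change 0.48) and Gja1 lower (-0.94), with edgeR adjusted p-values of 0.0215 and 0.0268, calls lost without any 1 library other than sham 3 (0.42 to 0.58 and -1.16 to -0.82). Here and below, a range in brackets beside a lost call is that of the log2 fold change over every library left out in turn. It includes the fit without sham 3, also where that fit kept the call. CPM is reads per 1000000 of a library after TMM scaling. Mitochondrial genes took 4.05% to 4.23% of the reads in the tumour libraries, 6.66% and 6.2% in sham 1 and 2 and 4.2% in sham 3. Levels are therefore given for each sham library apart, and what set sham 3 apart was not tested.

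Acta2, Tagln, Cnn1, Cnn2 and Tpm2 were high in all tumour libraries and in sham 3 and low in sham 1 and 2, and none of these 5 genes was called between the groups. Of the 9 genes tested, 1 was called higher in the tumour libraries (Ankrd1) and 1 lower (Tpm1) by edgeR's quasi-likelihood test at a Benjamini-Hochberg adjusted p below 0.05. Over all tested genes 10.5% were called higher and 10.4% lower, 20.9% in all, so the counts of called genes in this set are near the background. The tumour values did not overlap the sham values in 3 of the 9, Ankrd1 and Tagln above and Tpm1 below, against 44.1% of all tested genes (22.2% above and 21.9% below). The median log2 fold change, tumour over sham, was 0.45 over the 9 genes and -0.02 over all tested genes. The plot of each gene by library shows the values that follow.

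**Figure D1:**
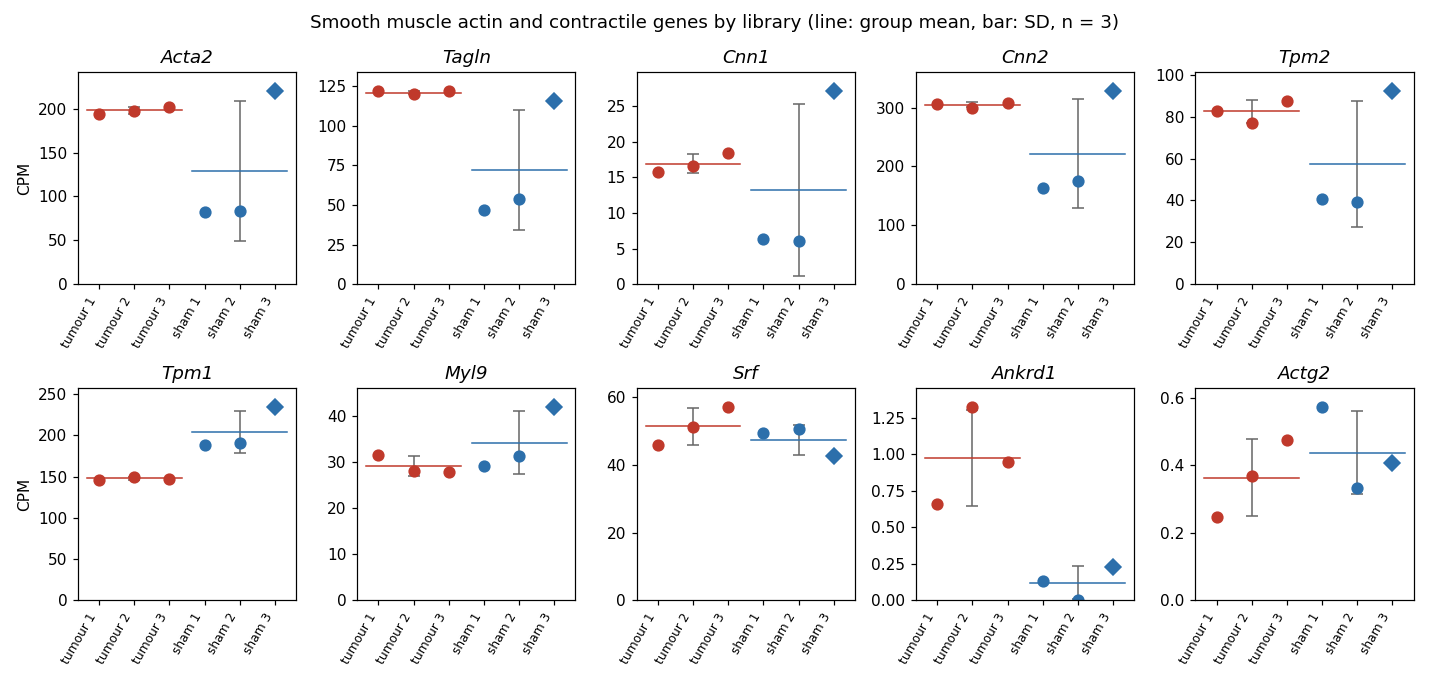
Levels of the 10 genes in CPM (y axes, each from 0) in the 3 tumour libraries (red) and the 3 sham libraries (blue, sham 3 as a diamond), with group means as lines and the SD over 3 libraries as bars. Acta2, Tagln, Cnn1, Cnn2 and Tpm2 in sham 3 lie far above sham 1 and 2, while Ankrd1 is highest in the tumour libraries and Tpm1 is lowest there.

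Acta2 encodes smooth muscle α-actin, the filament protein of the contractile apparatus, and lies at chr19:34241090-34255590 on the minus strand (GENCODE M21, GRCm38, as for all gene coordinates here). Its level was 194, 197 and 202 CPM in tumour libraries 1 to 3 and 82.1, 83.2 and 220 CPM in sham libraries 1 to 3. The tumour libraries were all above sham 1 and 2 and all below sham 3, so the groups overlapped. The means were 198 ± 3.63 and 129 ± 79.5 CPM (SD, n = 3 each). The log2 fold change of 0.62 (SE 0.39) had an edgeR adjusted p of 0.299, and a difference between the groups was not called. On log2 of CPM with 0.5 added, the tumour mean minus that of sham 1 and 2 was 1.25, and the tumour mean minus sham 3 was -0.16. In bulk RNA, fewer cells that express such a gene and less of its RNA per cell cannot be told apart.

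Tagln encodes transgelin (SM22), an actin-bundling protein of smooth muscle, at chr9:45929619-45936058 on the minus strand. It measured 122, 120 and 122 CPM in the tumour libraries, against 46.8, 53.7 and 116 CPM in the sham libraries. Every tumour library was above every sham library, but the gap to sham 3 was small against the gap to sham 1 and 2. The means were 121 ± 1.07 and 72.1 ± 38.1 CPM (SD, n = 3 each), with a log2 change of 0.75 (SE 0.33, edgeR adjusted p = 0.159). The tumour mean exceeded sham 1 and 2 by 1.27 and sham 3 by 0.07 on the log2 scale with 0.5 CPM added. Tagln overlaps the protein-coding gene Pcsk7 and the antisense RNA Gm48529 on the opposite strand, and whether the libraries keep strand was not given in the sources used here, so some of its reads are uncertain.

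The calponins bind actin and slow its use by myosin. Cnn1, the form of differentiated smooth muscle (chr9:22099216-22109630, plus strand), was at 15.8, 16.6 and 18.4 CPM in the tumour libraries, against 6.38, 6.03 and 27.1 CPM in the sham libraries. Sham 3 held the highest value of the 6 and sham 1 and 2 the lowest, and this was the widest split among the sham libraries of any gene of the set, with sham 3 above sham 1 and 2 by 2.04 on log2 of CPM with 0.5 added. The log2 fold change, tumour over sham, was 0.36 (SE 0.58, edgeR adjusted p = 0.698). Cnn2, the calponin of non-muscle cells and developing smooth muscle (chr10:79988584-79996062, plus strand), was at 307, 299 and 308 CPM in the tumour libraries, against 163, 176 and 328 CPM in the sham libraries. The order of libraries was that of Acta2, with a smaller spread: sham 3 was 1.86 times the higher of sham 1 and 2. Its log2 fold change was 0.45 (SE 0.27, edgeR adjusted p = 0.269).

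Tropomyosins lie along the actin filament and gate the access of myosin, and Tpm1 and Tpm2 differed in pattern. Tpm2 (chr4:43514711-43523765, minus strand) was at 82.8, 77 and 87.6 CPM in the tumour libraries, against 40.9, 39.4 and 92.2 CPM in the sham libraries. Here too the tumour values lay between sham 1 and 2 and sham 3, with a log2 change of 0.52 (SE 0.33, edgeR adjusted p = 0.305). Tpm1 (chr9:67022590-67049406, minus strand) was at 146, 150 and 147 CPM in the tumour libraries, against 189, 191 and 234 CPM in the sham libraries. Every tumour library was below every sham library, and sham 3 was again the highest. Tpm1 fell from 204 ± 25.6 to 148 ± 1.93 CPM (SD, n = 3 each), a log2 change of -0.47 (SE 0.1, edgeR adjusted p = 0.0205). That call was lost without tumour library 1, 2 or 3 (edgeR adjusted p = 0.0977, 0.09 and 0.0967), while the log2 fold change stayed between -0.48 and -0.46.

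Myl9, the regulatory light chain whose phosphorylation starts smooth muscle contraction (chr2:156775420-156781658, plus strand), was at 31.5, 28 and 27.8 CPM in the tumour libraries, against 29, 31.3 and 41.8 CPM in the sham libraries. The groups overlapped, and only sham 3 stood clear of the rest. The log2 fold change was -0.23 (SE 0.15, edgeR adjusted p = 0.319). Actg2, the second smooth muscle actin, known from gut and other visceral muscle (chr6:83512905-83536265, minus strand), had 6, 9 and 12 reads in the tumour libraries and 13, 8 and 9 reads in the sham libraries. It was at most 0.572 CPM in every library, close to the 0.118 to 0.136 CPM that 3 reads are worth, and was not tested. Its summed reads, 27 against 30, gave a tumour to sham ratio of 0.84 with a 95% interval of 0.48 to 1.46 (exact binomial), which covers counting error only.

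Srf encodes the transcription factor itself (chr17:46548329-46556175, minus strand) and is one of its own targets. It was at 45.9, 51.2 and 57 CPM in the tumour libraries, against 49.3, 50.5 and 42.5 CPM in the sham libraries. The groups overlapped, and sham 3 was the lowest of the 6, the reverse of its place for Acta2, Tagln, Cnn1, Cnn2 and Tpm2. The log2 fold change was 0.12 (SE 0.11, edgeR adjusted p = 0.485). The lincRNA Gm26904 on the opposite strand and the microRNA gene Mir6976 overlap Srf, so a few of its reads are uncertain.

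Ankrd1 encodes a stress-induced ankyrin repeat protein of muscle nuclei and sarcomeres (chr19:36111961-36120099, minus strand) and was scarcely expressed. It had 16, 32 and 24 reads in the tumour libraries and 3, 0 and 5 reads in the sham libraries, or 0.662, 1.32 and 0.948 against 0.132, 0 and 0.227 CPM. Every tumour library was above every sham library, and all sham values were at or near the level of 3 reads. Ankrd1 rose by a log2 change of 3.00 (SE 0.77, edgeR adjusted p = 0.0382), and the summed reads, 72 against 8, gave a ratio of 8.4 (95% exact binomial interval 4.04 to 20.2, counting error only). The call was lost without tumour library 1, 2 or 3 (edgeR adjusted p = 0.0985, 0.143 and 0.123) and without sham 1 or 2 (0.11 and 0.0588). With transcript length offsets its adjusted p was 0.0512, and it had too few reads to be tested under the filter of 10 reads in every library.

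The split among the sham libraries can be set beside the background. Sham 3 was at least 2-fold above both sham 1 and sham 2 in 4 of the 9 tested genes (Acta2, Tagln, Cnn1 and Tpm2), against 4.41% of all tested genes, with Cnn2 just outside. On the other hand, sham 3 was nearer to the tumour mean than to the mean of sham 1 and 2 in 5 of the 9, against 50.9% of all tested genes, so that count is near the background. These counts were drawn up after the values were seen and are descriptions, with 1 library against 2. Over the 9 genes the median log2 difference of sham 3 from sham 1 and 2 was 0.95, that of the tumour mean from sham 1 and 2 was 1.03, and that of the tumour mean from sham 3 was -0.16.

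**Figure D2:**
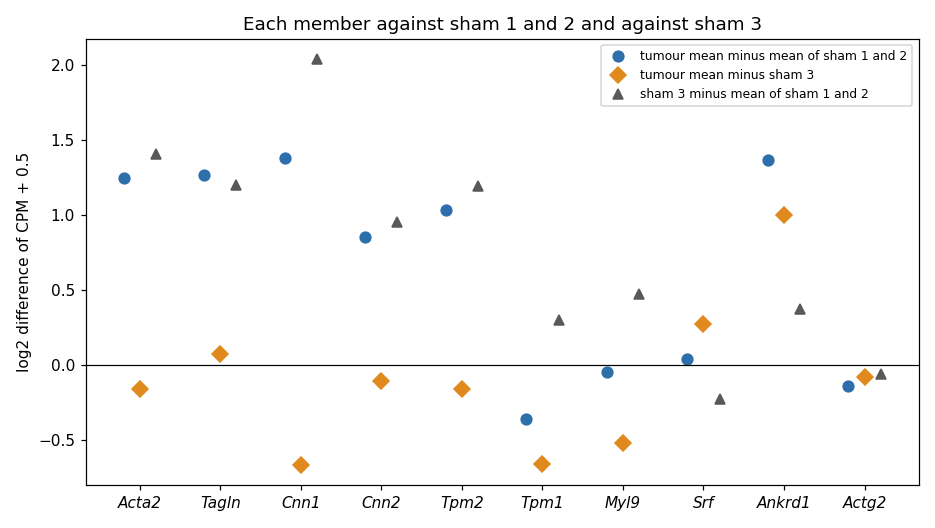
Log2 differences of CPM with 0.5 added (y axis) for each of the 10 genes (x axis): the tumour mean minus the mean of sham 1 and 2 (blue circles), the tumour mean minus sham 3 (orange diamonds) and sham 3 minus the mean of sham 1 and 2 (grey triangles). For Acta2 the points stand at 1.25, -0.16 and 1.41, and Tagln, Cnn1, Cnn2 and Tpm2 share this order of signs except that Tagln is 0.07 above sham 3. The Ankrd1 points depend strongly on the CPM added.

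When sham 3 was left out, 6 of the 10 genes then tested were called higher (Acta2, Tagln, Cnn1, Cnn2, Tpm2 and Ankrd1) and 1 lower (Tpm1). In that fit 29.1% of all genes were called higher and 28.6% lower, 57.7% in all, with only the nearly coinciding sham 1 and 2 as controls. The log2 fold changes became 1.26 for Acta2, 1.27 for Tagln, 1.45 for Cnn1, 0.84 for Cnn2 and 1.04 for Tpm2. Ankrd1 stood at 3.82 and Tpm1 at -0.36 in the same fit. Srf and Myl9 were at 0.04 and -0.05 and remained uncalled, with edgeR adjusted p-values of 0.641 and 0.568.

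**Figure D3:**
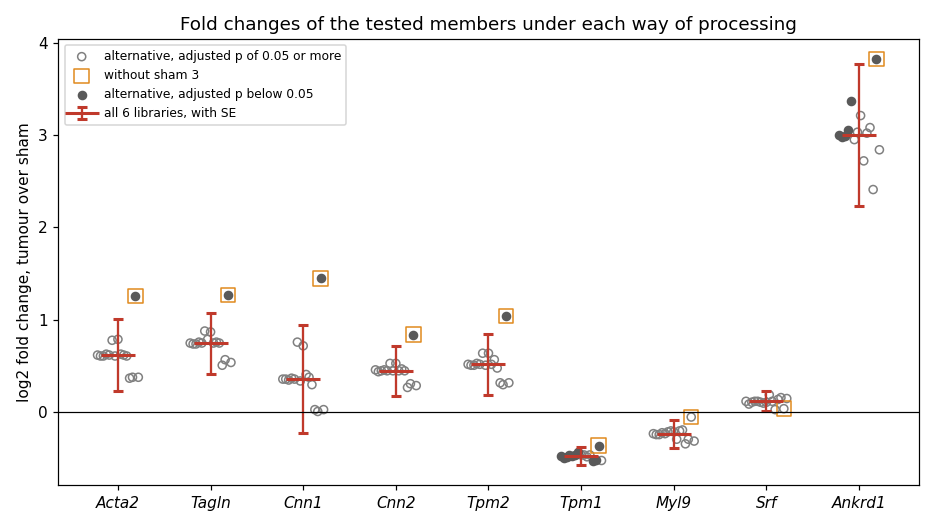
Log2 fold change, tumour over sham (y axis), of the 9 tested genes (x axis) with all 6 libraries (red line, bar SE) and under each alternative way of processing (circles, filled where the adjusted p was below 0.05), with the value without sham 3 boxed. Without sham 3 the values of Acta2, Tagln, Cnn1, Cnn2 and Tpm2 are filled and lie between 0.84 and 1.45, above the range of their other circles.

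Levels can be compared between genes only per length, in TPM (the deposited transcripts per 1000000, summed over a gene). In the tumour libraries Acta2 (184, 182 and 187 TPM) and Cnn2 (184, 175 and 180 TPM) were the most abundant and overlapped, followed by Tagln (135, 133 and 131 TPM) and Tpm1 (131, 130 and 127 TPM), whose ranges touch at 131. Tpm2 came next at 71.6, 65.9 and 76.1 TPM, then Srf at 35.4 to 48.1 TPM and Myl9 at 33.4 to 40.4 TPM, which overlapped as gene sums. The full-length coding Srf-201 alone was at 20.7, 22.3 and 23.9 TPM, below Myl9-201 at 37.3, 32 and 32 TPM. The rest of the Srf sum came from short retained-intron or incomplete models. Cnn1 was at 11.3 to 17.7 TPM, of which the incomplete model Cnn1-205 gave 5.14, 7.08 and 0 TPM. Ankrd1 and Actg2 were at 1.07 TPM or less. In sham 1 and 2 the order differed at the top: Tpm1 led at 151 and 158 TPM, ahead of Cnn2 at 91.9 and 102 TPM, Acta2 at 73.6 and 76.4 TPM and Tagln at 47 and 57.5 TPM. In sham 3 Acta2 at 206 TPM, Tpm1 at 203 TPM and Cnn2 at 195 TPM stood close together. These levels are set by Salmon's division of reads among transcripts. Few of the 31-base words in a gene's transcripts also occur in another gene, at most 1.5% (Acta2, shared mainly with Actg1 and actin pseudogenes) and 1.21% (Actg2), and none in Tagln, Cnn1, Cnn2, Ankrd1 and Srf. Words were compared on the transcript strand only, so the overlaps of Tagln and Srf with genes on the opposite strand are not counted.

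The tropomyosin genes make several proteins by choosing among first, internal and last exons, and the transcript estimates give the level of each form. For Tpm1, transcripts that begin at the internal first coding exon (chr9:67043578-67043709) and encode short proteins of 245 to 251 residues were at 81.4, 82.7 and 77.1 TPM in the tumour libraries and at 83, 97.4 and 125 TPM in the sham libraries. Those that begin at the upstream first coding exon (chr9:67049019-67049132) and encode proteins of 281 to 326 residues were at 45.5, 44.2 and 45 TPM against 60.4, 54.5 and 73.9 TPM. Both forms were lower in every tumour library than in every sham library, narrowly so for the short forms (82.7 against 83 TPM). The short forms made up 63.1% to 65.2% of the Tpm1 total in the tumour libraries and 57.9%, 64.1% and 62.8% in the sham libraries. A pair of 76-base exons is used in turn: transcripts with the one at chr9:67031951-67032026 were at 118, 118 and 111 TPM against 125, 137 and 185 TPM. Transcripts with the other, at chr9:67032466-67032541, were at 9.16, 8.73 and 11.4 TPM against 18, 14.5 and 14 TPM. Most of the Tpm1 estimate thus carried the first of these exons in every library.

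For Tpm2, every full-length transcript encodes 284 residues. The forms differ in the last coding exon and in a pair of 76-base internal exons used in turn, and are grouped here by the last coding exon. Tpm2-203, which ends in the exon nearest the 3′ end of the gene (chr4:43514782-43514861), was at 45.7, 42.4 and 47.6 TPM in the tumour libraries and at 16.9, 17.5 and 56.5 TPM in the sham libraries. Transcripts ending in the exon further upstream (chr4:43515924-43516003) were at 24.9, 21.5 and 24.9 TPM against 14.1, 13 and 22.3 TPM. Tpm2-203 made up 64.7% to 66.4% of the total in the tumour libraries, 54.5% and 57.3% in sham 1 and 2 and 71.7% in sham 3. The share was thus lowest in the libraries with least Tpm2. The 3′ end of Tpm2-202 spans the last exon of Tpm2-203, so reads there fit both, and the estimates come without a measure of their own error and were not tested.

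**Figure D4:**
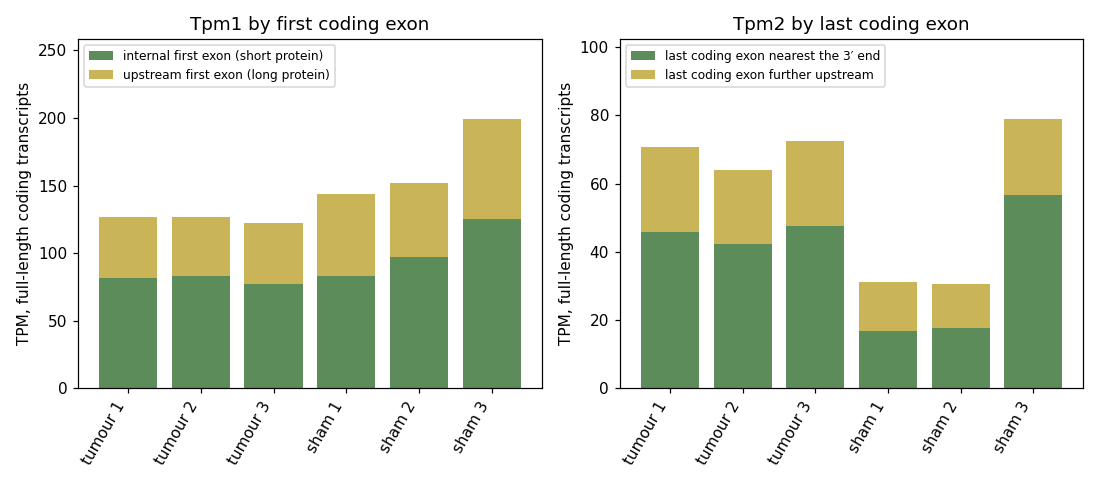
TPM summed over full-length coding transcripts (y axis, from 0) in each library (x axis): Tpm1 by first coding exon (left) and Tpm2 by last coding exon (right), with the forms stacked. The Tpm1 bars are lowest in the tumour libraries (122 to 127 TPM in all) and the Tpm2 bars lowest in sham 1 and 2 (31 and 30.5 TPM in all).

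Other genes of the contractile apparatus did not share 1 direction. Of 22 further smooth muscle contractile genes 19 were tested, 3 were called higher and 1 lower, with a median log2 fold change of 0.09. Hspb7, a small heat shock protein of muscle, was at 77.7, 88.7 and 83.6 CPM in the tumour libraries, against 3.78, 3.16 and 26.2 CPM in the sham libraries. It rose by 2.92 (SE 0.79, edgeR adjusted p = 0.0443), a call lost without any 1 of the libraries other than sham 3. Over every library left out in turn, sham 3 included, its log2 fold change was 2.47 to 4.58. Nexn, an actin-binding protein of the Z disc, rose by 0.93 (SE 0.14, edgeR adjusted p = 0.00718), from 10.4, 11.8 and 14.7 to 24, 24.4 and 22.1 CPM, and kept its call whichever library was left out. Mustn1 rose by 1.69 (SE 0.42, edgeR adjusted p = 0.0338) at no more than 2.24 CPM, a call lost without any 1 tumour library or sham 2 (1.37 to 2.13). Pdlim7, an adaptor of actin bundles, fell by 0.48 on the log2 scale (edgeR adjusted p = 0.00341). Myh11, the smooth muscle myosin heavy chain, was at 1.07 CPM or less in every library, and Des had at most 9 reads.

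The cytoplasmic and sarcomeric relatives of these genes gave 12 tested of 15, of which none was called higher and 1 lower, with a median log2 fold change of -0.04. At an unadjusted edgeR p below 0.05 the count was also 1, and DESeq2 and limma-voom each called 1, in every case Myl6. Myl6, the myosin essential light chain, fell by 0.36 on the log2 scale (edgeR adjusted p = 0.0315), a call lost without any 1 of the libraries other than sham 3 (-0.40 to -0.32). The cytoplasmic actins were abundant: Actb was at 1692, 1721 and 1712 CPM in the tumour libraries, against 1477, 1483 and 2163 CPM in the sham libraries. Actg1 was at 1972, 1919 and 1932 CPM and 1620, 1677 and 2293 CPM. Both were highest in sham 3 and lowest in sham 1 and 2, by less than Acta2: sham 3 was 0.55 and 0.48 above sham 1 and 2 on the log2 scale. Tpm4, a tropomyosin of non-muscle cells, was at 481, 453 and 453 CPM against 265, 252 and 476 CPM, nearly the pattern of Acta2. Skeletal actin (Acta1) had 28 reads in the tumour libraries together and 9 in the sham libraries, and cardiac actin (Actc1) at most 1 read in a library.

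The SRF cofactors were all tested and none was called; 2 of the 6, Myocd and Elk1, had an unadjusted edgeR p below 0.05, and DESeq2 and limma-voom each called 1, Myocd. Myocd encodes myocardin, the cofactor restricted to heart and smooth muscle. It was at 5.84, 5.96 and 5.53 CPM in the tumour libraries, against 0.264, 0.457 and 2.81 CPM in the sham libraries. Every tumour library was above every sham library, with sham 3 between, and the log2 fold change was 2.30 (SE 0.77, edgeR adjusted p = 0.0797). Mrtfa was at 50.9, 50.3 and 49.6 CPM against 53.7, 50.7 and 64.7 CPM (log2 fold change -0.16), and Mrtfb at 31.1, 37.9 and 36.2 CPM against 24.6, 24.6 and 38.9 CPM (0.25). These are the actin-sensing cofactors of cells in general. Among the ternary complex factors, Elk3 was at 63.3, 65.9 and 62.7 CPM against 33.2, 30.7 and 74.8 CPM, the order of libraries seen in Acta2. Elk1 was at 28.1, 27 and 29.9 CPM against 32.4, 32 and 41.7 CPM, and Elk4 at 33.1, 27.9 and 32.4 CPM against 28.5, 30 and 32.5 CPM.

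In sham 3 the immediate early targets of SRF were low, while the medians of the contractile and cytoskeletal lists differed in sign. The ternary complex factor targets, immediate early genes such as Fos and Egr1, summed to 5988, 5867 and 5878 CPM in the tumour libraries, to 6863 and 6879 CPM in sham 1 and 2 and to 1542 CPM in sham 3. Fos was at 1265, 1273 and 1251 CPM in the tumour libraries, against 1536, 1607 and 166 CPM in the sham libraries, and Egr1 at 1461, 1399 and 1440 CPM and 1683, 1690 and 479 CPM. Sham 3 thus had the highest Acta2 and Cnn1 of the 6 libraries and the lowest Fos and Egr1. None of the 10 was called between the groups, 0 had an unadjusted edgeR p below 0.05, and DESeq2 and limma-voom called 0. Over the 19 tested of the 22 further smooth muscle contractile genes, the median log2 difference of sham 3 from sham 1 and 2 was -0.22. It was -1.98 over these 10 immediate early genes, against 0.43 over 15 cytoskeletal targets of SRF and the myocardin-related factors. Of those 15, Flnc (filamin C) rose by 0.90 (SE 0.21, edgeR adjusted p = 0.0274, lost without any 1 library other than sham 3, 0.77 to 1.17) and Vcl (vinculin) fell by 0.80 on the log2 scale (edgeR adjusted p = 0.00658, kept whichever library was left out).

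**Figure D5:**
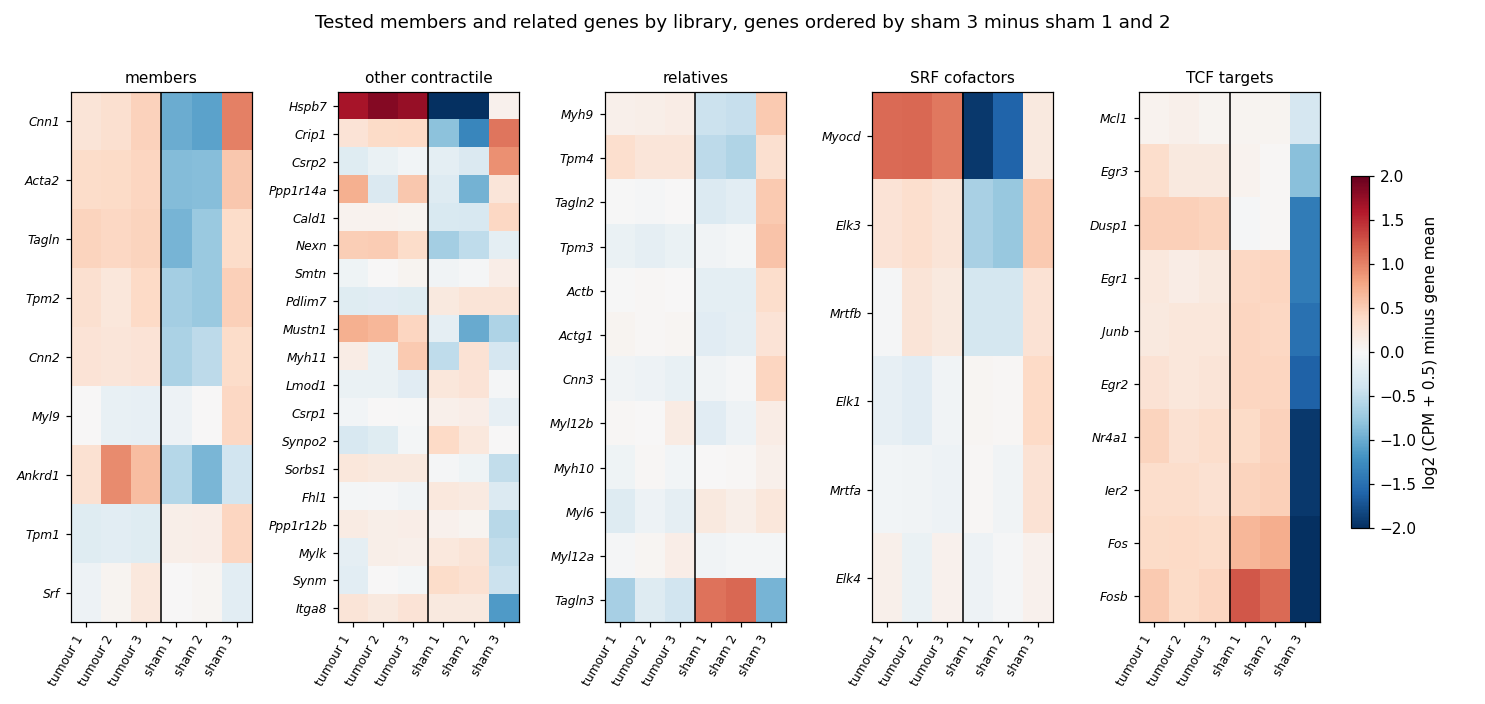
Log2 of CPM with 0.5 added, minus each gene's mean over the 6 libraries (colour, darkest at 2 or more from the mean), for the tested genes of 5 lists (panels; members are the 9 contractile genes of the set) in each library (columns, a line between tumour and sham). Cnn1, Acta2, Tagln, Tpm2 and Cnn2 are blue in sham 1 and 2 only, and the immediate early genes in the panel of TCF targets are blue in sham 3, where they sum to 1542 CPM.

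Upstream of these genes, the YAP, TAZ and TEAD list gave 9 tested, none called higher and 1 lower. Tead2, a DNA-binding partner of YAP, fell by 0.61 on the log2 scale (edgeR adjusted p = 0.012), a call lost without any 1 tumour library (-0.70 to -0.54 over all libraries left out). In this list 5 genes had an unadjusted edgeR p below 0.05, DESeq2 called 5 and limma-voom 2. Of 12 YAP and TEAD targets other than Ankrd1, 3 were called higher and 1 lower, with a median log2 fold change of 0.07. Dlc1 rose by 1.32 (SE 0.08, edgeR adjusted p = 0.000368), from 16.7, 18.3 and 15.9 to 42.2, 41.8 and 42.9 CPM, and kept its call whichever library was left out. Amotl1 rose by 0.76 and Axl by 0.66, and Nuak2 fell by 0.91 on the log2 scale (edgeR adjusted p = 0.0187, 0.0492 and 0.0229). The calls of Amotl1 (0.66 to 0.95) and Axl (0.55 to 0.91) were lost without any 1 library other than sham 3, and that of Nuak2 (-1.04 to -0.66) without any 1 tumour library. Ccn2, a much used YAP target, was at 217, 223 and 220 CPM against 221, 239 and 222 CPM and was not called.

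The TGF-β pathway is a main inducer of smooth muscle actin in fibroblasts. Of its genes, Smad7, the inhibitory Smad, rose by 0.82 (SE 0.13, edgeR adjusted p = 0.00844), a call kept whichever library was left out. Ltbp1, which tethers latent TGF-β in the matrix, rose by 1.75 (edgeR adjusted p = 0.0144), and the ligand gene Tgfb3 fell by 0.46 on the log2 scale (edgeR adjusted p = 0.0209). Their calls were lost without any 1 tumour library (1.54 to 2.25 and -0.52 to -0.36).

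Markers of other cells that carry contractile genes are given beside these results. The 8 markers of vascular smooth muscle outside the set summed to 28 to 30 CPM in the tumour libraries, against 29.2, 30.5 and 26.2 CPM in the sham libraries, with Myh11 at 1.07 CPM or less and Pln at 0 or 1 read. Most of that sum was Lmod1 (20.5, 20.6 and 19.2 CPM against 26.5, 27.5 and 22.2 CPM), and it did not follow the order of Acta2. Single markers did otherwise: of the 4 tested, Mustn1 was called higher and Myocd was above every sham library in each tumour library (both given above), and the median log2 fold change of the 4 was 1.16. The 9 pericyte markers summed to 339 to 351 CPM in the tumour libraries, against 284, 284 and 474 CPM in the sham libraries. Their sum followed the order of Acta2, although Rgs5 was at no more than 12 reads and Kcnj8 and Higd1b at no more than 2 reads in a library. In all 6 pericyte markers tested, sham 3 was nearer to the tumour mean than to sham 1 and 2, against 50.9% of all tested genes. The median log2 difference of these 6 from sham 1 and 2 was 0.54 for sham 3 and 0.19 for the tumour mean. Of the 6 pericyte markers tested, edgeR called 0, with 0 at an unadjusted p below 0.05, and DESeq2 and limma-voom called 0. The 10 fibroblast and leptomeningeal markers, among them the collagen gene Col1a1 (966, 962 and 970 CPM against 1092, 1070 and 1717 CPM), summed to 5650 to 5766 CPM in the tumour libraries, against 5674, 5700 and 7892 CPM in the sham libraries. The sum was highest in sham 3, but the markers differed: their median log2 difference of sham 3 from sham 1 and 2 was -0.25. Col3a1 (log2 fold change -1.03), Slc6a13 (-2.83) and Foxc1 (-0.45) were called lower in the tumour libraries and Pdgfra (0.63) higher (edgeR adjusted p = 0.00586, 0.0157, 0.0112 and 0.0326). The call of Col3a1 was kept whichever library was left out. Those of Slc6a13 (-3.19 to -2.52), Foxc1 (-0.50 to -0.43) and Pdgfra (0.47 to 0.73) were each lost without any 1 tumour library, that of Slc6a13 also without sham 1 or 2 and that of Pdgfra also without sham 2. The part of these cells, and of the mitochondrial share, in the levels of the contractile genes was not tested.

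Genes with the most similar pattern over the 6 libraries were taken by the root mean square difference of log2 CPM (0.5 added, centred per gene) among 10797 genes with a mean of at least 5 CPM. For Acta2 they were Rin1 (0.045), Cnr1 (0.048), Ifi204 (0.052), Smpd3 (0.053) and Litaf (0.057), and for Tagln they were Scara5 (0.049), Il4ra (0.05), Ahnak (0.061), Ptx3 (0.061) and Nkain1 (0.065). Within the set, Acta2 differed from Tagln by 0.098, from Tpm2 by 0.117 and from Cnn2 by 0.201, and Cnn2 differed from Tpm2 by 0.114. Acta2 was farthest from Tpm1, at 0.724. For Ankrd1 the nearest were Dgkh (0.185), Slc9b2 (0.196), Cobll1 (0.198), Prkar2b (0.203) and Rab15 (0.206), all higher in every tumour library than in every sham library. Ankrd1 is so low that the 0.5 CPM added sets its profile. Its tumour mean minus sham 1 and 2 was 1.37, against 2.77 with 0.1 CPM added and 0.52 with 2 CPM added. On log2 TPM, 3 of the 5 genes remained for Acta2, 2 of 5 for Tagln and 0 of 5 for Ankrd1.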

How the data were processed

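Estimated counts and TPM per transcript were deposited by the authors, per the file headers, with transcript lengths and effective lengths. Salmon 0.8.2, DESeq2 1.28.1 and the mm10 build were named, per the submitters' processing notes. The library kit, strandedness and read length were not given in the sources used here. Of 113116 transcripts, 112841 were matched to GENCODE M21 and 275 were dropped. Their counts were added up by gene, then rounded. edgeR 4.0.16 (R 4.3.3) was fitted to the genes that passed filterByExpr (at least 10 counts, total of 15) with TMM scaling, a robust quasi-likelihood fit, group as the only term and Benjamini-Hochberg adjustment at 0.05. SEs were derived from the F statistic. CPM values use TMM library sizes, and log2 differences add 0.5 CPM. The script was tested on simulated data. The 10 genes and all lists were chosen with earlier results of these data known. All 10 genes are named; of each list, up to 4 called genes of lowest p (the 2 most abundant genes where none was called), all actins and all SRF cofactors. Tpm4, Myh11, Des, Ccn2, Tead4, Lats1, Yap1, Wwtr1 and the single markers were chosen after their values were seen. Promoter windows are RefSeq's. Alternatives used DESeq2 1.42.0 and limma 3.58.1, other scalings and filters, length offsets, a replicate block and each library left out. Same-numbered tumour and sham libraries did not deviate together (correlations -0.0155 to 0.0156). Because the tumour libraries nearly coincided, little deviation was left to compare, and the check cannot decide whether the numbers pair the libraries. A few results of the lists are not reported here.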

Additional observations from a re-analysis of the deposited data

How the results depend on the processing

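Over 15 alternatives (14 for Ankrd1) none of the 9 tested genes of the set changed direction, and Actg2, not tested in the fit of all 6 libraries, was not compared. Log2 fold changes ranged over 0.37 to 1.26 for Acta2, 0.51 to 1.27 for Tagln, 0.01 to 1.45 for Cnn1, 0.27 to 0.84 for Cnn2, 0.30 to 1.04 for Tpm2, -0.53 to -0.36 for Tpm1, -0.34 to -0.05 for Myl9, 0.03 to 0.19 for Srf and 2.41 to 3.82 for Ankrd1. With all 6 libraries 2 genes of the set were called, Ankrd1 and Tpm1, as they were with DESeq2, limma-voom, either other scaling and no filter. With at least 10 reads in every library 1 was called, since Ankrd1 was then not tested, and with transcript length offsets 1, since Ankrd1 reached 0.0512. With the replicate block 0 were called by edgeR (3 had an unadjusted p below 0.05: Ankrd1, Tagln and Tpm1), and with near libraries summed, which leaves 1 value against 2, 0 were called and 0 had an unadjusted p below 0.05. Leaving out 1 library gave 0 to 7 called genes of the set, the 7 without sham 3. Among the related genes named, length offsets also ended the calls of Hspb7, Axl and Pdlim7, no filter that of Hspb7, and the replicate block those of Mustn1, Hspb7, Myl6, Axl and Tgfb3 and of the markers Aldh1l1, Gja1, Foxc1 and Pdgfra, while summing near libraries ended every call. Over all genes, 1506 were called higher and 1492 lower. Length offsets left 1075 higher and 968 lower, the replicate block 829 higher and 607 lower, and summing near libraries 0 and 0 (573 of 15684 genes at an unadjusted p below 0.05). Leaving out 1 library gave 536 to 4250 higher and 355 to 4179 lower, the highest without sham 3. Depth limits Ankrd1, whose sham values of 3, 0 and 5 reads lie near the level of 3 reads, and Actg2, with 6 to 13 reads in a library.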
